A study of Mus musculus with 4 samples.

Results

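The immunoglobulin heavy chain constant genes encode the part of the antibody heavy chain that sets its class. The 8 genes examined here were Ighm, Ighd, Ighg3, Ighg1, Ighg2b, Ighg2c, Ighe and Igha, of 37310 genes in the annotation of mouse genome build mm9 (NCBIM37), together with the Igh locus on chromosome 12 in which they lie. They were taken by name and not by any measured value, although earlier results of these data were known when they were chosen. The question was how the genes, the 5 kb upstream of each, and the locus around them stood in a list of genomic intervals bound by RIF1, a factor that organises replication timing and protects broken DNA ends from resection.

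The intervals came from chromatin immunoprecipitation with sequencing (ChIP-seq) of primary splenic B cells isolated with anti-CD43 beads. The 4 samples formed 2 groups. Rif1FH/FH cells (2 samples) carried an N-terminal FLAG-HA tag on the endogenous Rif1 gene in both alleles, and C57BL/6 Rif1WT/WT cells (2 samples) carried untagged RIF1 and served as the negative control. All cells were activated with lipopolysaccharide (LPS) at 5 µg/ml and interleukin 4 (IL-4) at 5 ng/ml and collected after 72 h. Chromatin of 200 to 600 bp was precipitated against the HA tag according to the protocol, although the antibody label names the anti-CD43 beads. The tagged mice were kept on a C57BL/6 background, mice of both sexes were used, and age was not given in the sources used here. The list holds no expression values, so the cell type could not be checked against its markers.

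The data were 1 list of 16332 intervals kept from both Rif1FH replicates, with a position for each interval and no height, score or value per sample. Read depth cannot be taken from such a list, replicates could not be compared with each other or with the untagged control, and no test was made. The intervals were of 2 kinds that did not overlap in width. The 16043 intervals under 50 kb, of which the widest was 14827 bp, are called peaks. The 289 others were 90 kb or wider and are called wide intervals. They were taken to be the RIF1-associated domains (RADs), broad regions of low enrichment, because the list does not name the kind of each interval. By the study's own definition a peak that overlaps a RAD is left out, and 0 of the 16043 peaks overlapped a wide interval. A gene inside a wide interval could thus not be listed with a peak.

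In a mature B cell the rearranged V, D and J segments are transcribed with Ighm and Ighd. Class switch recombination replaces Ighm by a gene farther downstream. Activation-induced deaminase (AID) acts at repetitive switch regions that lie upstream of each constant gene except Ighd, and the broken switch regions are joined. LPS with IL-4 directs murine B cells chiefly to IgG1, encoded by Ighg1, and to a lesser degree to IgE, encoded by Ighe. Switch regions carry many copies of AGCT, a motif that AID prefers, and Sµ upstream of Ighm consists largely of GAGCT and GGGGT. They are also rich in G on the coding strand, which favours R-loops when they are transcribed. The 5 kb directly upstream of each gene are called its flank.

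The switch sequences differed widely between the members in how many of these pentamers they held, and 4 windows are shown to make this visible. Each is the 200-base window of the flank with the most copies of GAGCT and GGGGT, read 5′ to 3′ on the coding strand, which is the minus strand of chromosome 12 in mm9, with both pentamers in capitals. They lie at chr12:114663219-114663418 for Ighm, chr12:114500921-114501120 for Igha, chr12:114572125-114572324 for Ighg1 and chr12:114656690-114656889 for Ighd, which has no switch region of this kind.
Ighm: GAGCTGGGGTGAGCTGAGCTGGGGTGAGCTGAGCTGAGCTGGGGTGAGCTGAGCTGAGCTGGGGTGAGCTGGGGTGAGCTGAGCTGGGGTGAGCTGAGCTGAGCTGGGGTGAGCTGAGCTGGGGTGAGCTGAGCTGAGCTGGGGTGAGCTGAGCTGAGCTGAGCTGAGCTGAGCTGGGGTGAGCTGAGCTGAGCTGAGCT
Igha: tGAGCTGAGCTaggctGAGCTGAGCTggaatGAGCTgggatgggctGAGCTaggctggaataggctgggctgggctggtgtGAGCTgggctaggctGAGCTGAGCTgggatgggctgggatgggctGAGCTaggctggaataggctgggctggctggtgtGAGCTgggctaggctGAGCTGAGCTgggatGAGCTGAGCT
Ighg1: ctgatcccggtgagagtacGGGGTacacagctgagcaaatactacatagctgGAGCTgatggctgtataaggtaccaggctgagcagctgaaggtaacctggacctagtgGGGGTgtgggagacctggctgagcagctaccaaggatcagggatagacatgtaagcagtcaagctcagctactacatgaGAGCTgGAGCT
Ighd: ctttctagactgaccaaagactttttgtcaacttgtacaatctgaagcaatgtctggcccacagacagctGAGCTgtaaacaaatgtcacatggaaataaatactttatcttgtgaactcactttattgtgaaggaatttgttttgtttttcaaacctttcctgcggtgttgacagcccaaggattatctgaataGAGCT
The Ighm window, 2278 bp upstream of the gene, was made up of the pentamers over 100% of its bases, with 30 copies of GAGCT and 10 of GGGGT. The Igha window held 15 copies, all of GAGCT, and the Ighg1 window 5 copies of both together. The Ighd window held 2 copies. Windows chosen in the same way held 12 copies for Ighe, 10 for Ighg3, and 4 each for Ighg2b and Ighg2c.

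All 8 genes lay on the minus strand and spanned 164 kb. Ighm, the constant gene of IgM, occupied positions 114659078 to 114660941. Ighd, the constant gene of IgD, lay at 114652490 to 114654440, with its 5′ end 6.50 kb downstream of that of Ighm. The genes of the IgG classes followed. Ighg3 lay at 114597876 to 114599443, Ighg1 at 114567187 to 114568734, Ighg2b at 114544600 to 114546144 and Ighg2c at 114523536 to 114527141. Their 5′ ends were 61.5 kb, 92.2 kb, 115 kb and 134 kb downstream of the 5′ end of Ighm. Ighe, for IgE, lay at 114509391 to 114511457, 149 kb downstream, and Igha, for IgA, at 114496979 to 114498385, 163 kb downstream. The annotation listed Ighm (ENSMUSG00000076617.2), Ighg1 (ENSMUSG00000076614.2) and Ighg2c (ENSMUSG00000076612.2) under their own symbols.

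The other 5 needed further evidence to be placed. Ighg3 (ENSMUSG00000076615.2, listed as AI324046) and Ighg2b (ENSMUSG00000076613.2, listed as Ighg) were recognised by the order of neighbouring genes in RefSeq. Ighe (ENSMUSG00000076611.2, listed as Gm900 under a further identifier) was recognised by a RefSeq synonym. Ighd and Igha had no entry under their names in the annotation used here and were placed by translated matches to the constant exons of the other members. Only groups of matches whose best match was to an Ighm exon were considered, and of these the one with the lowest e-value was used. The best match for Igha had 43.8% identity over 64 residues (e-value 1.90e-35). The best in the group used for Ighd had 35.7% identity over 42 residues (e-value 5.82e-11). Another group in the Ighd search had a stronger match, to Ighg2b, with 53.4% identity over 58 residues (e-value 1.55e-20), and this rule left it out. The ends of Igha and Ighd are the ends of the matches and may leave out exons.

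All 8 constant genes lay entirely inside 1 wide interval, chr12:113742001-114980000, of 1238 kb. Over the annotation, 19.2% of genes overlapped a wide interval. Because the 8 genes are neighbours within 164 kb, their shared position is 1 observation of 1 interval and not 8 separate ones. None of the 8 overlapped a peak, against 24.6% of annotated genes, a count that follows from the wide interval over them. Among the 22380 protein-coding genes, 22.6% overlapped a wide interval and 35.8% a peak.

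The 8 flanks gave the same picture. All 8 lay entirely inside the wide interval, against 18.9% of the flanks of all annotated genes, and none overlapped a peak, against 22.6%. Ighg1 and its flank, toward which LPS and IL-4 direct switching, thus did not differ in the list from Igha and its flank. The list holds no signal height, so whether RIF1 signal varied along the interval was not measured here.

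**Figure D1:**
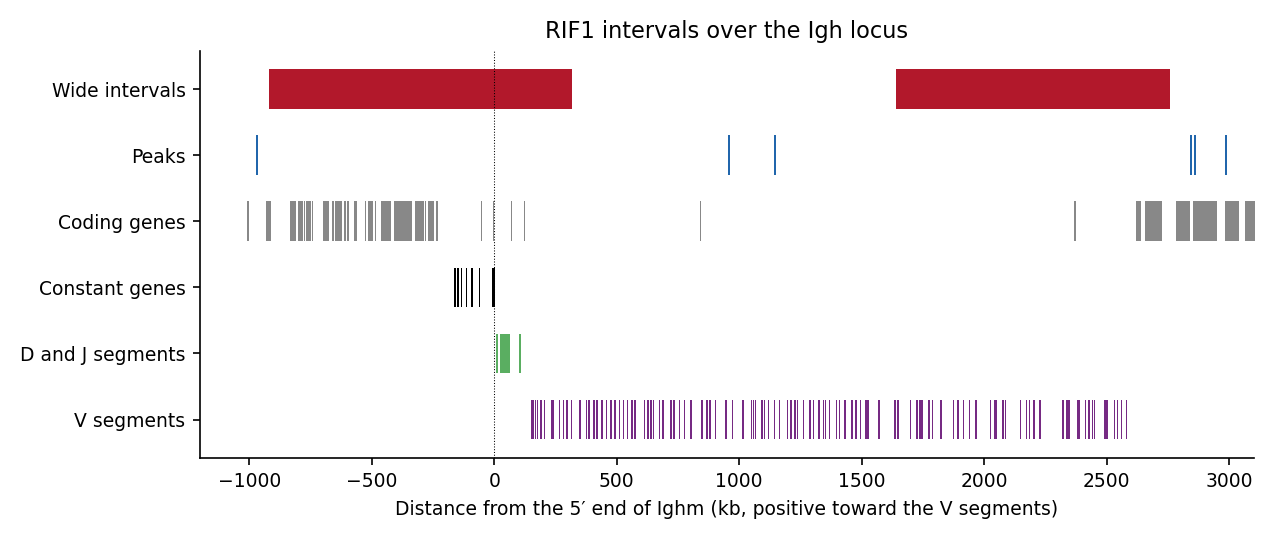
RIF1 intervals and annotated features by distance from the 5′ end of Ighm in kb, with the V segments to the right and the coding genes downstream of Igha to the left. Red bars are wide intervals, blue bars peaks (drawn at least 8 kb wide, other features at least 6 kb), grey coding genes other than the members, black the 8 constant genes, green the D and J segments and purple the V segments. The constant, D and J segments sit in the left wide interval of 1238 kb, and the 2 peaks of the V cluster sit between the wide intervals.

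The constant genes were far from either edge of the interval. Igha was nearest to the downstream edge, at 755 kb. Ighe followed at 767 kb, Ighg2c at 782 kb, Ighg2b at 803 kb, Ighg1 at 825 kb, Ighg3 at 856 kb, Ighd at 910 kb and Ighm at 917 kb. Ighm was nearest to the upstream edge, at 319 kb, and Igha was 482 kb from it. Of 578 edges of wide intervals, 576 lay at a multiple of 2000 bp, so an edge is known to no better than that step.

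Distances to the nearest peak were correspondingly long. They ran from 809 kb for Igha through 821 kb for Ighe, 835 kb for Ighg2c, 856 kb for Ighg2b, 879 kb for Ighg1, 910 kb for Ighg3 and 956 kb for Ighm to 962 kb for Ighd, with a median of 868 kb. The median over 37252 annotated genes was 54.0 kb, and 11.0% of genes were farther from a peak than the median member. No peak can lie inside a wide interval, so the long distances follow largely from the position of the members in it. Genes inside wide intervals were not compared separately. For Ighm and Ighd the nearest peak lay upstream, in the V cluster, and for the other 6 members it lay downstream of Igha.

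AGCT was counted in each flank as a measure that does not come from the ChIP-seq. The Ighm flank held 214 copies, the Igha flank 134, the Ighg2b flank 114, the Ighg3 flank 110 and the Ighe flank 108. The Ighg2c flank held 81 and the Ighg1 flank 73, although their clusters of AGCT ran past the 5 kb counted here. The Ighd flank held 19, below the median of 25 (quartiles 21 and 29) over the 22359 flanks of coding genes. The 7 members other than Ighd were above the 99th percentile of those flanks, which was 40. AGCT reads the same on both strands, so the counts do not depend on the strand.

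The pentamers GAGCT and GGGGT, counted together on the coding strand, gave another order from the third to the seventh place. The Ighm flank held 238, the Igha flank 111, the Ighe flank 79, the Ighg3 flank 77, the Ighg2b flank 39, the Ighg1 flank 29, the Ighg2c flank 25 and the Ighd flank 9. The median over coding flanks was 10 and the 99th percentile 23. Each GAGCT contains an AGCT, so the counts of the motifs overlap. Ighg1 and Ighg2c were above the 99th percentile by both counts, with 29 and 25 of these pentamers against 23 and with 73 and 81 copies of AGCT against 40.

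G exceeded C on the coding strand in the 7 flanks with a switch region. The excess, as a percentage of bases, was 20.7% for Ighg3, 20.04% for Ighg2b, 16.6% for Igha, 16.3% for Ighg1, 14.7% for Ighg2c, 13.2% for Ighm and 9.04% for Ighe, and the Ighd flank had −0.44%. The median of coding flanks was −0.04% and the 99th percentile 6.18%. Total GC content was less distinct, at 48.3% to 54.7% in the 8 flanks against a median of 44.8% in coding flanks.

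**Figure D2:**
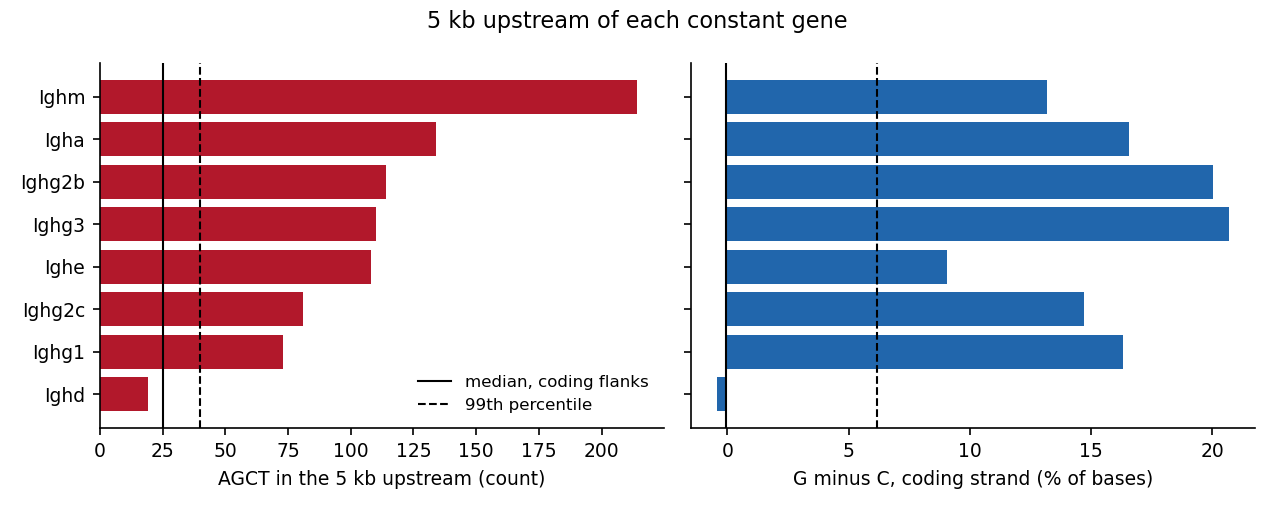
AGCT count (left) and excess of G over C on the coding strand as a percentage of bases (right) in the 5 kb upstream of each constant gene. Solid lines are the median over coding flanks (25 copies and −0.04%) and dashed lines the 99th percentile (40 copies and 6.18%), and Ighd is the member below both dashed lines.

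The motif lay in clusters upstream of the genes, which were followed in 1 kb steps counted from each gene. A cluster was taken as the unbroken run of steps with more than 8 copies of AGCT around the densest step. The densest step upstream of Ighm held 111 copies and began 2 kb from the gene, in a run of 3 kb with 202 copies. Igha reached 48 copies in a run of 5 kb with 134. Ighe reached 40 copies in a run of 4 kb with 99, and Ighg3 40 copies in a run of 3 kb with 93. The densest steps of the other IgG genes were lower. Ighg2b reached 33 copies in a run of 7 kb with 153, Ighg2c 32 copies in a run of 6 kb with 124, and Ighg1 23 copies in a run of 8 kb with 133. The runs of Ighg2b, Ighg2c and Ighg1 thus went beyond the 5 kb flank, and over its run Ighg1 held about as many copies as Igha. The length of a run depends on where the steps begin and on the threshold. Upstream of Ighd no step exceeded 7 copies.

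**Figure D3:**
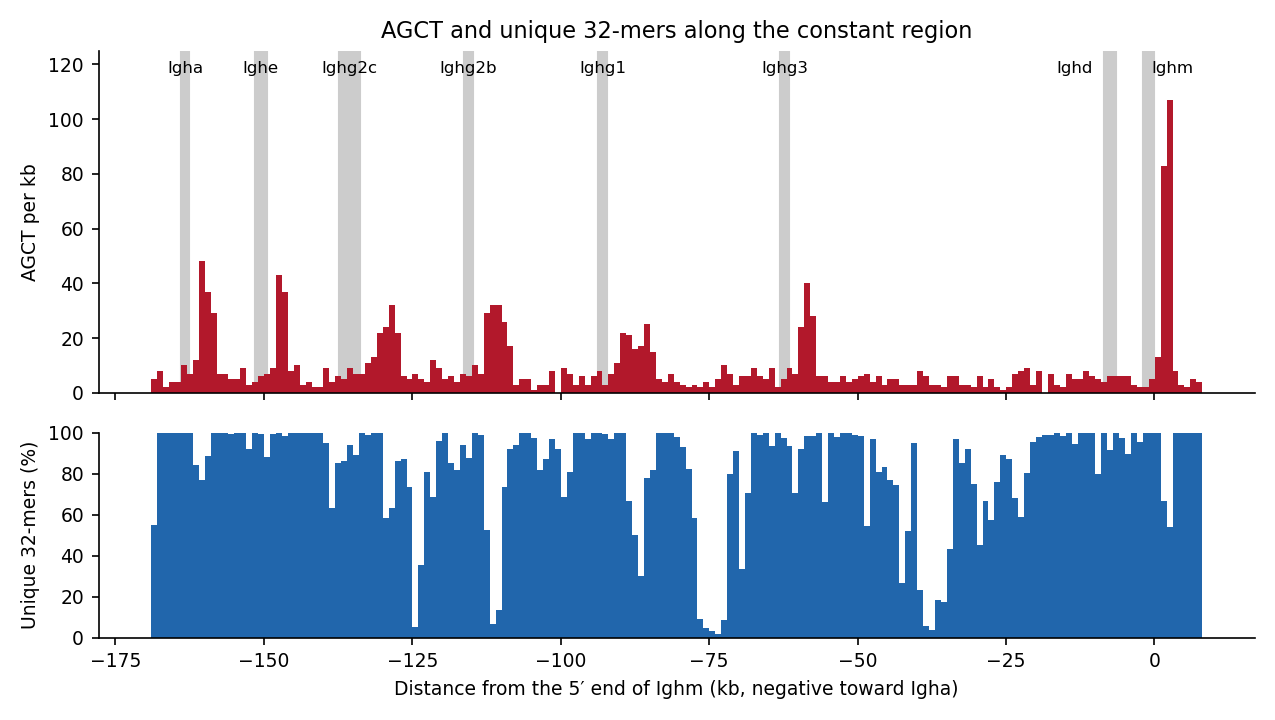
Copies of AGCT per kb (top) and percentage of unique 32-mers (bottom) in 1 kb steps along the constant region, by distance from the 5′ end of Ighm in kb. Grey bands mark the 8 genes, and a cluster of AGCT stands on the upstream side (right) of each gene except Ighd.

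Reads were kept only where they aligned to 1 place, so repeated sequence limits what the list can hold. The share of 32-base words that occur once in the genome was 52.0% in the Ighg2b flank and 83.8% in the Ighm flank. It was 85.7% for Ighg1, 90.0% for Igha, 90.1% for Ighg2c, 90.2% for Ighg3, 96.5% for Ighd and 99.4% for Ighe. Over 448 coding flanks, which were not filtered for runs of N, the median was 92.8%, and 7.14% of them were at or below the Ighg2b value. In the densest 1 kb of AGCT upstream of Ighm 50.6% of words were unique, and in that upstream of Ighg2b 38.8%. The aligned reads tolerated mismatches and the read length was not used here, so these shares describe the reference and not the libraries. The tagged mice and the reference share the C57BL/6 strain, but the number of repeats assembled in a switch region can differ from that in the animals. On an allele that has switched to IgG1, the DNA between the Ighm and Ighg1 switch regions, with Ighm, Ighd and Ighg3, is cut out of the chromosome, and V(D)J rearrangement removes DNA between the joined segments. The share of such alleles in these cultures was not measured, and its part in the intervals was not tested.

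The Ighm flank also held 3 annotated miRNA entries, AC073553.1, AC073553.2 and AC073553.3. The last ran from 114663361 to 114663438 and overlapped the printed Ighm window. The Ighd flank overlapped the predicted gene Gm11029 on the plus strand and the 3′ end of Ighm. No other flank overlapped an annotated gene.

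The wide interval that holds the constant genes ranked 39 of 289 by width and 2 of the 12 on chromosome 12. The median wide interval was 576 kb (quartiles 432 and 808 kb). The GC content of the interval over the constant genes, 48.8%, was above the median of 45.4% (quartiles 43.3% and 47.8%). Its 24.2 start sites of coding genes per Mb lay within the quartiles of 7.63 and 28.8, with a median of 14.6. The interval reached far past the antibody genes on the downstream side. It overlapped 30 coding genes in the annotation, which counts some members. All 17 coding genes within 500 kb downstream of Igha lay in it, and none had a peak. Among these were Tmem121, the first coding gene past Igha, Crip1 and Crip2, Mta1, which encodes a subunit of a histone deacetylase complex, Brf1, a subunit of the RNA polymerase III initiation factor, and Jag2, a Notch ligand. Both counts for the 17 follow from the interval, which reached 755 kb past Igha and holds no peak by definition. Over all coding genes, 22.6% overlapped a wide interval and 35.8% a peak. Farther on, the kinase gene Akt1 and the formin gene Inf2 were also inside the interval. The edge fell within Tmem179, of which 67.1% was covered.

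The 3′ regulatory region, a group of enhancers that drives germline transcription of most switch regions, lies in mice between Igha and Tmem121. It has no entry of its own in the annotation. The 69.2 kb between the genes, chr12:114427732-114496978, lay entirely in the wide interval and so could not be listed with a peak.

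Upstream of Ighm the same interval covered all 4 annotated J segments, all 21 D segments and the first 13 of 112 V segments. It ended 5.22 kb past Ighv5-9-1 (Gm16886 in the annotation), and the next V segment, Ighv2-9-1 (Gm16595), lay 28.1 kb beyond its edge. The next 1320 kb, chr12:114980001-116300000, held 61 V segments, no wide interval and 2 peaks. A second wide interval, chr12:116300001-117420000, of 1120 kb, then began between Ighv1-49 and Ighv8-5 and covered the remaining 38 V segments up to Ighv1-85, as well as Zfp386 and Vipr2. Thus 51 of 112 V segments lay in a wide interval, against 19.2% of annotated genes, and the rearranging V cluster was split into 3 stretches. The 51 are neighbours under 2 intervals, so they are 2 observations and not 51 separate ones. None of the 112 had a peak, against 24.6% of annotated genes. For the 51 this follows from the wide intervals, whereas the 61 between could have been listed with one. V segments are short and the annotation counts whole genes of any length, so these shares are not a like comparison. Whether the 61 had fewer peaks than their length would give was not tested.

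The V families were not spread evenly over these stretches. The interval over the constant genes held 6 of 10 segments of family 2 and 7 of 10 of family 5, which lie nearest to the D segments. The distal interval held all 8 segments of family 8 and 30 of the 56 segments of family 1, the largest family. Families 3, 4, 6, 7 and 9 to 16 lay wholly in the stretch without a wide interval. This order follows the known order of the families along the chromosome. RefSeq symbols were found for 136 of 137 V, D and J segments.

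The distal interval differed in composition from that over the constant genes. Its GC content was 39.6%, rank 8 from the lowest of 289, and it had 2.68 coding start sites per Mb. Of its 32-base words 53.2% were unique, against 70.0% in the stretch between the intervals and 81.2% in the interval over the constant genes.

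The 2 peaks of the V cluster were the only ones between the wide intervals. The first, chr12:115616862-115617860, was 999 bp wide, overlapped no annotated gene, and lay 11696 bp from Ighv12-3. The second, chr12:115801052-115802102, was 1051 bp wide and lay 686 bp from Ighv15-2. The median peak over the genome was 1365 bp wide. In the first peak 65.5% of 32-base words were unique and GC content was 58.6%, and in the second these values were 97.2% and 50.9%. The central 200 bases of each are shown on the plus strand of mm9 with CG in capitals, at chr12:115617262-115617461 and chr12:115801478-115801677, since they are the RIF1 peaks nearest to the V segments.
First peak: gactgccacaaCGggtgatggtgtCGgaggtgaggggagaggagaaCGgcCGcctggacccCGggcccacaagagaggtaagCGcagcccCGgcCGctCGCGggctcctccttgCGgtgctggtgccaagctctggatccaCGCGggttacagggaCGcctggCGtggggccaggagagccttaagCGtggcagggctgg
Second peak: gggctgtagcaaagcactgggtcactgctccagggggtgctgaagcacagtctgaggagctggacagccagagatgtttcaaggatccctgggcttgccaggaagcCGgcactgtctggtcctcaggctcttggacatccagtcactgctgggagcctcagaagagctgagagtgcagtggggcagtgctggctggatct
The first window held 16 CG dinucleotides at a GC content of 69.5%, and the second 1 CG at 60.0%.

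The nearest peak on the downstream side, chr12:113687286-113688326, was 1041 bp wide and lay outside the wide interval, 25862 bp from A730018C14Rik. In the 1 Mb past that edge there were 14 peaks and 18 coding genes. Past the distal interval the first peak, chr12:117500819-117502253, overlapped the start of Wdr60, with its midpoint 38 bp from the start site. Peaks were thus listed on both outer sides of the locus.

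Within 2 Mb on each side of the constant genes there were 22 peaks, or 5.28 per Mb (95% exact Poisson interval 3.31 to 7.999, which covers counting only). Chromosome 12 had 6.67 per Mb and the genome 6.27, both within this interval. The value depends on the window, and it was 0.924 per Mb with 1 Mb on each side and 8.58 per Mb when the sequence in wide intervals was left out. The values for chromosome 12 and the genome keep that sequence in, so they are not a like comparison for the 8.58 per Mb. The sides differed, with 20 peaks (10 per Mb) downstream and 2 peaks (1 per Mb) upstream, where the V cluster lies. Wide intervals took up 38.4% of the window, against 8.14% of chromosome 12 and 8.70% of the genome, and their shares of the sides were 37.7% downstream and 34% upstream. The interval over the constant genes lies wholly in the window and gives 1238000 bp of the 1598941 bp counted. The share thus largely restates the position of the genes in that interval.

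The light chain loci were examined for comparison. Igkc, the constant gene of the kappa light chain, overlapped a peak of 1608 bp, chr6:70675884-70677491, and no wide interval. In the Igk locus 0 of 105 annotated segments lay in a wide interval and 9 had a peak, which were Igkc and 8 of 99 V segments. Over the annotation, 19.2% of genes overlapped a wide interval and 24.6% a peak. Those shares count whole genes of any length, whereas most segments are short, so they are not a like comparison. The Igk span of 3171 kb held 16 peaks with a median width of 939 bp. In the Igh locus 81 of 142 annotated segments lay in a wide interval and none had a peak, which those 81 could not have been listed with. The 142 are entries typed as immunoglobulin segments, with 5 of the constant genes, and leave out Ighd, Igha and Ighg2c. Iglc2 and Iglc3, constant genes of the lambda light chain, both lay in a wide interval of 326 kb. All 3 annotated segments of the Igl locus, none of them typed as a constant gene, lay in it too. Each locus is again 1 observation, and the difference between loci was not tested.

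**Figure D4:**
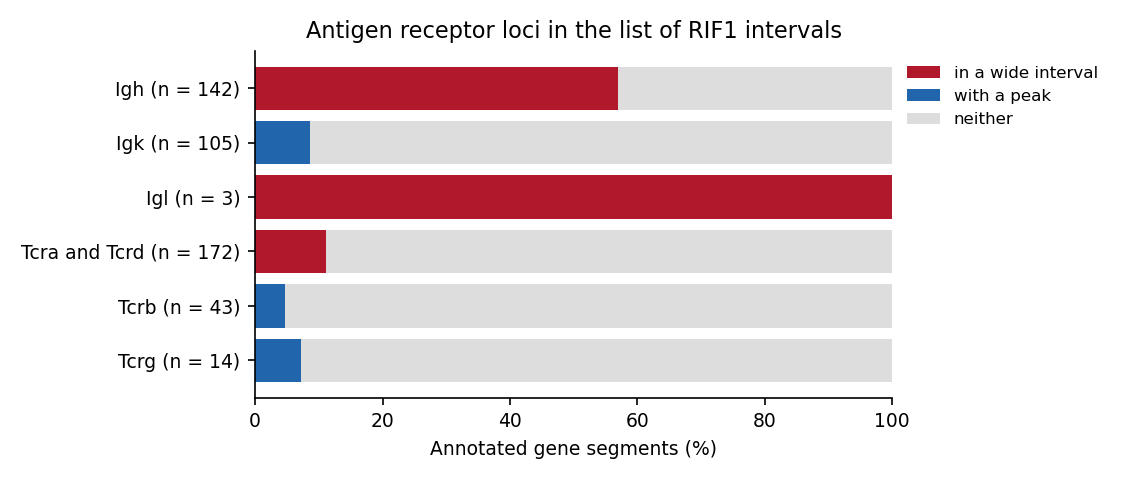
Percentage of annotated gene segments of each antigen receptor locus that lay in a wide interval (red), had a peak (blue) or had neither (grey), with the number of segments on the left. Igh shows 81 of 142 segments in a wide interval and none with a peak, and Igk shows 9 of 105 with a peak and none in a wide interval. Segments are entries typed as such in the annotation, which leaves out Ighd, Igha and Ighg2c. Over all annotated genes 19.2% overlapped a wide interval and 24.6% a peak, counted over whole genes of any length. This is not a like comparison for short segments.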

How the data were processed

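ChIP-seq reads of 4 samples had been processed by the authors. They trimmed reads with Trim Galore 0.6.4, aligned them with Bowtie 1.0.0 to mm9, keeping unique alignments, called peaks per replicate with MACS2 2.2.6 and domains with EDD, and merged calls with bedtools 2.27.1, keeping those found in both Rif1FH replicates. The calling threshold, the bin size and whether untagged samples or a list of excluded regions entered the calling are not given in the sources used here. The deposited list by the authors holds positions in bp, with no other value. There were 0 further columns of per-sample values.

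Positions are given from 1 on mm9, with genes of GENCODE M1. A gene or flank overlapped an interval if they shared at least 1 bp. Ighd and Igha were placed with tblastx 2.17.0. Unique 32-mers and motifs were counted in the reference. For motifs, GC content and the excess of G, the coding flanks compared were those without long runs of N. The 448 coding flanks compared for 32-mers were not filtered in this way, and words with N counted as not unique. Overlap and k-mer counting were tested on simulated data. Computation used Python 3.11.15, numpy 2.4.6, pandas 2.3.3, scipy 1.17.1, pysam 0.24.0 and samtools 1.23.1. Named genes were the members, the flanking segments at each interval edge, the nearest coding genes and the receptor genes of fixed lists. The members and lists were chosen with earlier results of these data known. None of the 8 members was found in the RefSeq promoter table, so no promoter is shown.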

Additional observations from a re-analysis of the deposited data

How the results depend on the processing

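The list carries no value per sample, so no replicate could be left out. No paired analysis was possible because both replicates were joined into 1 list. Of 31 alternative values, 27 were unchanged within 1.5 times the reported one or within its counting interval. Many of these could not have changed, for the reasons given next. The counts of 8 genes in a wide interval and 0 with a peak were the same with the widths divided at 20 kb or 90 kb and under the other overlap rules tried. No interval had a width between 14827 bp and 90 kb, so these divisions all gave the same 2 sets. The overlap rules could not change the counts either, because every member lay at least 319 kb from an edge and peaks in wide intervals are left out. Those of 8 flanks and 0 flanks were the same with flanks of 2 kb and 10 kb and under the other overlap rules tried, and no other division of the widths was run for them. For the same reason these counts could not change. The density of peaks around the constant genes moved with the window, from 5.28 per Mb to 0.924 per Mb with 1 Mb on each side, of which 57.2% was wide interval. It was 8.58 per Mb outside wide intervals and 2.64 per Mb when only peaks of at least the median width were counted. The median density of AGCT in the flanks was 21.8 per kb and that of GAGCT with GGGGT 11.6 per kb. The median distance from members to a peak was 870 kb between 5′ ends and peak midpoints, and 1171 kb for the wider peaks. Depth is unknown, so an interval that is absent from the list is not shown to lack RIF1.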

Other observations

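Partners of the heavy chain in the B cell receptor and its precursor did not all stand alike in the list. Over the annotation, 19.2% of genes overlapped a wide interval and 24.6% a peak. These few genes were not tested against those shares, so the mixture is not shown to be particular to them. Cd79a, which encodes the Igα signalling chain, lay in a wide interval of 1836 kb, and Cd79b, which encodes Igβ, overlapped a peak of 1021 bp. Of the surrogate light chain genes, Vpreb1 overlapped a peak of 1359 bp, Vpreb3 lay in a wide interval of 360 kb, and Vpreb2 and Igll1 had neither, with Igll1 6.19 kb from a peak. Igj, which encodes the joining chain of polymeric IgM and IgA, had neither and lay 11.5 kb from the nearest peak.

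Of the T cell receptor constant genes, Trac lay in a wide interval of 460 kb, and Trbc1, Trbc2 and Tcrg-C had neither a peak nor a wide interval. In the joined Tcra and Tcrd locus 19 of 172 annotated segments lay in a wide interval and 0 had a peak, whereas 2 of 43 Tcrb segments and 1 of 14 Tcrg segments had a peak. All of these shares were below those over the annotation, of 19.2% for wide intervals and 24.6% for peaks. The annotation counts whole genes of any length and most segments are short, so this is not a like comparison.

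A group of 46 translated matches, best to Ighg2b, lay at chr12:114605142-114608989 between Ighg3 and Ighd, where the annotation lists the predicted gene Gm17421 on the plus strand. It was not used as a member because its best match was not to Ighm, although its e-value was lower than that of the group used for Ighd. It lay in the same wide interval.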
